A study of Eurytemora affinis with 4 samples.

Results

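At 23 transcribed loci of the copepod *Eurytemora affinis*, a small planktonic crustacean of estuaries, the isoform with the highest estimated level in adult males was another one than in adult females. The loci were chosen by their FPKM values (fragments per kilobase of transcript, scaled to the sequencing depth) in the authors' deposited Cuffdiff isoform table, which lists 61672 loci. A locus had to lie on a scaffold and to have 2 to 4 isoforms, all of them tested. Its isoforms had to sum to at least 2 FPKM in each sex. The top isoform had to differ between the sexes and to hold at least 60% of that sum in its own sex. Of the 4368 scaffold loci with 2 to 4 isoforms, 1342 had all isoforms tested and 750 of these also reached the FPKM minimum, which makes them the eligible loci here. The top isoform was the same in both sexes at 640 of the 750, differed at 110, and met the 60% minimum in both sexes at 23. These 23 are called switch loci for the rule that chose them, and the isoforms are called male-dominant and female-dominant. The shares, FPKM values and Cuffdiff fold changes chose the loci or come from the same comparison, so they are given as a description.

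The groups were adult males and adult females from culture, each as 2 libraries of poly(A) RNA from homogenates of whole animals. Both sexes grew up at 13 °C and a salinity of 15 PSU, with light for 15 h and darkness for 9 h of each day. They were held apart during the last 2 days, and during the last 24 h they got no food but beads of 6.0 µm, at 120 µL per L, to empty the gut. In homogenates of whole animals, fewer cells of a type and less RNA per cell cannot be told apart. Whether the libraries of a sex stem from separate cultures is not stated, so the authors' p-values may measure technical spread. The deposited tables give 1 pooled value per sex and the results of the authors' own tests, with no value per library, so no spread between replicates can be shown and the depth per library is unknown. In the authors' deposited edgeR table the average level of the 23 loci over the libraries ran from 1.35 to 9.49 log2 CPM (CPM, counts scaled to the library size), with a median of 5.29.

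Several isoforms of one gene can arise from alternative splicing, from alternative starts of transcription or from alternative polyadenylation sites. In *Drosophila*, sex-specific splicing of the transformer and doublesex transcripts is part of the pathway that sets somatic sex. A change in the isoform used need not change the total output of a gene, so that isoforms and totals have to be read side by side. The deposited tables pair the loci with no gene name, strand or exon, and all isoforms of a locus carry the position of the whole locus. Which exons or ends the isoforms differ in was therefore not analysed here.

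The 23 loci lay on 23 scaffolds, 1 on each. They spanned 766 to 42905 bases with a median of 7390, against a median of 8925 bases for the other 727 eligible loci. Of the 23, 17 had 2 isoforms, 6 had 3 and none had 4, and 2 isoforms were likewise the usual number at the other eligible loci (73.9% of the switch loci and 67.3% of the others). They were of low to moderate level. The summed FPKM in the authors' deposited table ran from 2.20 to 30.2 in males and from 2.45 to 27.3 in females, with medians of 6.38 and 7.84, and at 20 of the 23 the sex with the lower sum was under 10 FPKM. Among the other eligible loci the medians were 7.20 FPKM in males and 8.82 FPKM in females.

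The male-dominant isoform held a median of 76.0% of the summed FPKM in males and 22.1% in females. The female-dominant isoform held a median of 19.0% in males and 77.5% in females. In males the share of the male-dominant isoform ran from 61.4% to 100%, and in females from 0.111% to 39.1%, as the rule required.

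**Figure D1:**
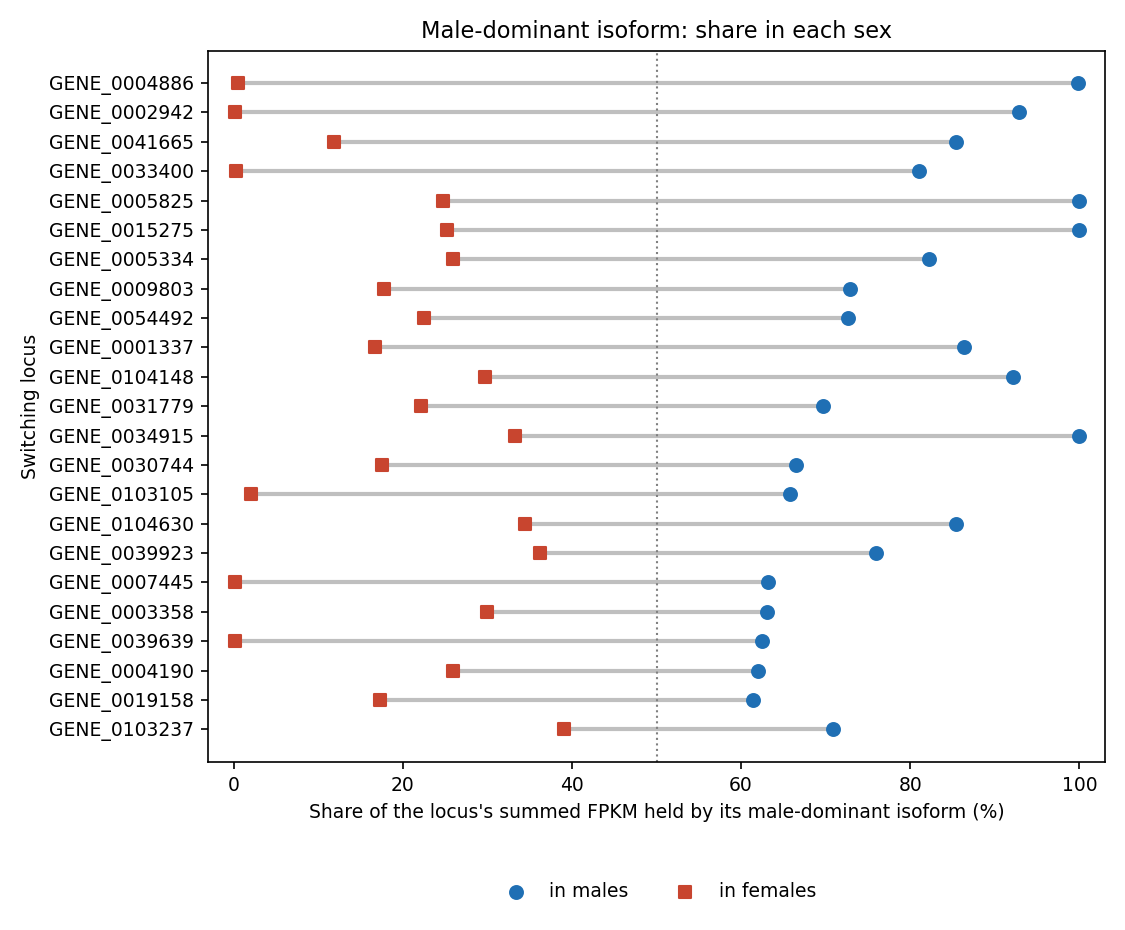
Each row is 1 switch locus, ordered by the smaller of its dominant shares; the x axis gives the share (%) of the locus's summed FPKM held by its male-dominant isoform, in males (circles) and in females (squares), as 1 pooled value per sex without error bars. The circles lie between 61.4% and 100% and the squares between 0.111% and 39.1%, with the widest gaps at the top.

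The exchange was most complete at 2 loci, where each dominant isoform held over 90% of the FPKM of its own sex. GENE_0004886, on Scaffold111 at bases 722043 to 723667, had its isoform CUFF.4630.1 at 4.09 FPKM in males and 0.0446 FPKM in females in the authors' deposited table. Its other isoform, CUFF.4630.2, was at 0.00870 FPKM in males and 8.47 FPKM in females there. The 2 isoforms thus stood at 99.8% of the male sum and 99.5% of the female sum. GENE_0002942, on Scaffold10 at bases 1222810 to 1227899, had CUFF.1475.4 at 8.10 FPKM in males and 0.0376 FPKM in females in the authors' deposited table. Its female-dominant isoform CUFF.1475.5 was at 0.292 FPKM in males and 18.2 FPKM in females there. The lowest Cuffdiff adjusted p among the dominant isoforms of both loci was 0.282, for CUFF.1475.4, in the authors' deposited table.

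At 8 of the 23 loci, the 2 just described among them, a dominant isoform was estimated at under 0.05 FPKM in the other sex. On the male side these included GENE_0039639 on Scaffold102, whose CUFF.2216.5 was at 4.23 FPKM in males and 0.00347 FPKM in females in the authors' deposited table. GENE_0033400 on Scaffold12 had CUFF.6270.1 at 5.17 FPKM in males and 0.0145 FPKM in females there, and GENE_0007445 on Scaffold139 had CUFF.11033.3 at 1.44 FPKM in males and 0.00601 FPKM in females. On the female side, GENE_0034915 on Scaffold121 had CUFF.6986.3 at 0.000664 FPKM in males and 12.6 FPKM in females in the authors' deposited table. GENE_0015275 on Scaffold1184, the shortest locus, had CUFF.5994.2 at 0.000185 FPKM in males and 2.96 FPKM in females there. GENE_0005825 on Scaffold688 had CUFF.75291.4 listed at 0 in males and at 6.45 FPKM in females. An FPKM of 0 or close to it can be a failed estimate, and no fold change is given for the last of these. For CUFF.6986.3 the authors' deposited edgeR table had a log2 fold change of males over females of -0.56, at 3.63 log2 CPM. The male-dominant CUFF.6986.5 of the same locus had -1.27 at 4.04 log2 CPM there, and edgeR called neither.

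At 12 loci, by Cuffdiff FPKM, 1 dominant isoform differed by less than 1 log2 unit between the sexes while the other differed by more. At 9 of these it was the male-dominant isoform that differed by less than 1 log2 unit, and the female-dominant isoform was lower in males. GENE_0030744, on Scaffold263 at bases 465179 to 481033, had CUFF.34437.4 at 5.07 FPKM in males and 4.79 FPKM in females, whereas CUFF.34437.2 was at 2.41 FPKM in males and 21.9 FPKM in females in the authors' deposited table. GENE_0104148, on Scaffold359 at bases 320746 to 336681, had CUFF.47263.7 at 7.38 FPKM in males and 5.12 FPKM in females, whereas CUFF.47263.8 was at 0.629 FPKM in males and 12.1 FPKM in females there. The largest of these loci in genomic span was GENE_0104630 on Scaffold41, with CUFF.53482.5 at 8.37 FPKM in males and 5.29 FPKM in females and CUFF.53482.12 at 1.43 FPKM in males and 10.1 FPKM in females in the authors' deposited table. The others were GENE_0003358, GENE_0004190, GENE_0031779, GENE_0034915, GENE_0039923 and GENE_0103237. In Cuffdiff FPKM at these 9 loci, the male-dominant isoform differed by less than 1 log2 unit and the female-dominant isoform by more. In the authors' deposited edgeR table this held at GENE_0030744 alone, with log2 fold changes of 0.50 and -5.28. GENE_0104148, for example, had -1.28 for its male-dominant and -0.75 for its female-dominant isoform there. At GENE_0004190 edgeR did not list the female-dominant isoform.

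The reverse was found at 3 loci, where the female-dominant isoform was near-constant and the male-dominant isoform was higher in males. GENE_0005334, on Scaffold112 at bases 877301 to 893486, had CUFF.4812.3 at 24.8 FPKM in males and 2.02 FPKM in females in the authors' deposited table. Its female-dominant isoform CUFF.4812.1 was at 5.37 FPKM in males and 5.78 FPKM in females there. GENE_0019158, on Scaffold1033 at bases 10287 to 11626, had CUFF.2545.2 at 14.8 FPKM in males and 3.54 FPKM in females, and CUFF.2545.1 at 9.28 FPKM in males and 17.0 FPKM in females in the authors' deposited table. The third was GENE_0039639, whose CUFF.2216.4 was at 2.53 FPKM in males and 3.13 FPKM in females there. In the authors' deposited edgeR table the pattern held at GENE_0005334 but not at the other loci. GENE_0039639 had log2 fold changes of 1.57 for CUFF.2216.4 and 0.83 for CUFF.2216.5 there. GENE_0019158 had 0.97 for CUFF.2545.1 and 0.34 for CUFF.2545.2.

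By Cuffdiff, the remaining 11 loci had both dominant isoforms at least 1 log2 unit apart between the sexes. Of these, 5 had neither isoform near 0. GENE_0054492, on Scaffold133 at bases 849661 to 857050, was the most abundant of the 5, with CUFF.9880.2 at 16.5 FPKM in males and 4.09 FPKM in females and CUFF.9880.1 at 6.19 FPKM in males and 14.1 FPKM in females in the authors' deposited table. GENE_0041665, on Scaffold101 at bases 575156 to 595312, had CUFF.1950.1 at 3.32 FPKM in males and 0.931 FPKM in females, and CUFF.1950.4 at 0.565 FPKM in males and 6.91 FPKM in females there. GENE_0103105, on Scaffold106 at bases 5959 to 12696, had CUFF.3033.1 at 6.86 FPKM in males and 0.239 FPKM in females, and CUFF.3033.2 at 2.91 FPKM in males and 8.93 FPKM in females in the authors' deposited table. GENE_0001337 on Scaffold162 and GENE_0009803 on Scaffold654 completed the group, the second at 2.36 FPKM in males and 4.21 FPKM in females over all its isoforms.

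**Figure D2:**
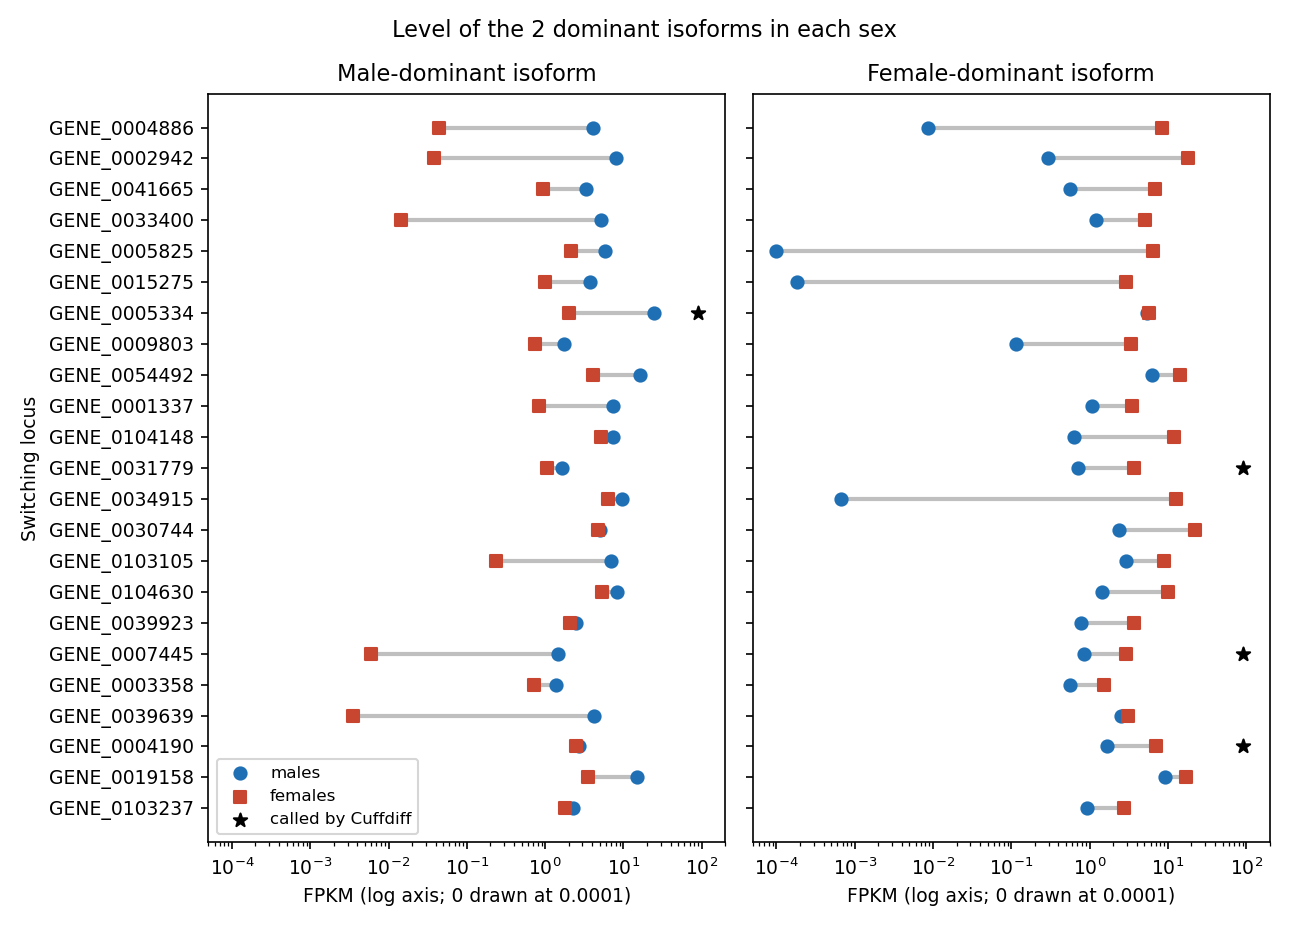
FPKM on a log axis of the male-dominant isoform (left panel) and the female-dominant isoform (right panel) of each switch locus, in males (circles) and females (squares), as 1 pooled value per sex without error bars, with 0 drawn at 0.0001 FPKM. Stars mark the 4 isoforms that Cuffdiff called at an adjusted p under 0.05, 1 male-dominant and 3 female-dominant; none of the isoforms with the widest gaps carries a star.

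Few of these differences passed the authors' tests. Of the 52 isoforms of the switch loci, Cuffdiff called 4 at an adjusted p under 0.05 in the authors' deposited table, which is 7.69%, against 15.0% of all tested isoforms (6.07% higher and 8.95% lower in males) and 8.35% of the isoforms of the other eligible loci. EdgeR called 3 of the 48 isoforms listed in the authors' deposited edgeR table (6.25%), against 12.3% of all (5.64% higher and 6.69% lower in males) and 12.3% of those of the other eligible loci. The male-dominant CUFF.4812.3 of GENE_0005334 was higher in males, with a log2 fold change of males over females of 3.62 and a Cuffdiff adjusted p of 0.00595 in the authors' deposited table. The other 3 were female-dominant and lower in males. They were CUFF.20284.9 of GENE_0004190 with a log2 fold change of -2.10 and an adjusted p of 0.0296, CUFF.11033.1 of GENE_0007445 with -1.80 and 0.0449, and CUFF.84152.2 of GENE_0031779 with -2.37 and 0.0457, all from Cuffdiff in the authors' deposited table. CUFF.20284.9 and CUFF.11033.1 are not listed by edgeR, so that edgeR could not call them. No switch locus had both dominant isoforms called, with 0 of 23 by Cuffdiff and 0 of 19 by edgeR in the authors' deposited tables. At the other 4 loci a dominant isoform was not listed by edgeR, so that no such call was possible. At an unadjusted p under 0.05 in opposite directions the count was 1 by Cuffdiff, GENE_0005825, and 0 by edgeR. Among the other 727 eligible loci, isoforms called in both directions were found at 0 by Cuffdiff and at 8 (1.10%) by edgeR.

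The isoforms with the largest fold changes were not among those called. Of the 52 isoforms, 13 had an absolute Cuffdiff log2 fold change of at least 4, the 1 listed at 0 included, and Cuffdiff called 0 of them in the authors' deposited table (1 at an unadjusted p under 0.05, and 0 called by edgeR). Their unadjusted Cuffdiff p ran from 0.0351 to 0.309 there. Over the whole deposited table, Cuffdiff called 26.6% of the 8542 tested isoforms with changes of that size. Among these it called 30.4% where the locus had a single isoform, 6.67% where it had more, and 0.909% of the 220 at the other eligible loci. The switch loci were in this respect close to the other few-isoform loci, and the difference was not tested.

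The same isoforms stand in the authors' deposited edgeR table with other fold changes. Both dominant isoforms were listed there at 19 of the 23 loci. The male-dominant isoform had the higher edgeR log2 fold change at 9 of the 19 and the female-dominant isoform at 10. The difference, male-dominant minus female-dominant, had a median of -0.06 and ran from -1.92 to 5.79, whereas the lowest Cuffdiff difference at the 23 loci was 1.92. The 60% minimum makes the Cuffdiff difference positive and also bounds it from below, so its size is in part set by the rule. For comparison, at each of the other eligible loci the isoform with the largest gain in share in males was set against the one with the largest loss. The edgeR order was the same as the Cuffdiff order at 326 of 555 such loci (58.7%), and at 39 of 63 (61.9%) of those whose top isoform differed between the sexes but missed the 60% minimum. The 47.4% at the switch loci rests on 19 loci, and its difference from these shares was not tested. Both tables come from the same 4 libraries, so that neither is independent of the other.

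**Figure D3:**
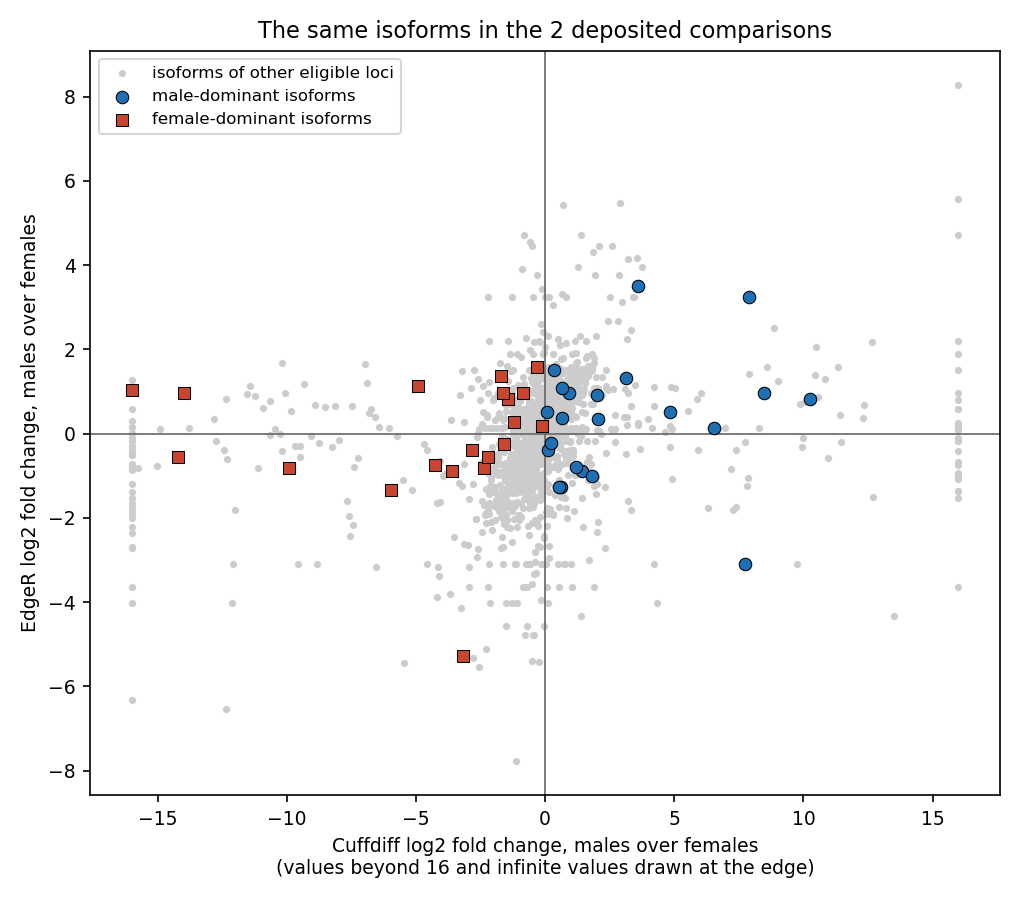
Log2 fold change of males over females by Cuffdiff (x axis) and by edgeR (y axis) for the isoforms listed in both deposited tables: male-dominant (circles) and female-dominant (squares) isoforms of the switch loci, and isoforms of the other eligible loci (grey), with values beyond 16 log2 units drawn at the edge. All circles lie right of 0 and all squares left of 0, and on the y axis 14 of the 22 circles and 10 of the 20 squares are above 0.

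Of the 9 loci where the male-dominant isoform had the higher edgeR log2 fold change, 4 had a difference of at least 1 log2 unit. GENE_0005334 was one of them. Its male-dominant CUFF.4812.3 had an edgeR log2 fold change of 3.50 with an adjusted p of 3.66e-10 in the authors' deposited table, and the female-dominant CUFF.4812.1 had 0.19 with an adjusted p of 1. Of the 52 isoforms, 48 of them listed by edgeR, CUFF.4812.3 was the only one that both tools called. It was also the only one in the authors' deposited set of 710 isoforms shared by 3 methods, where its log2 fold change in the edgeR Trinity mode was 3.25. That set stands beside 47585 isoforms listed by edgeR, so 1 of 52 is not read as a trait of the switch loci. GENE_0030744 had the largest edgeR difference. Its female-dominant CUFF.34437.2 had an edgeR log2 fold change of -5.28 with an adjusted p of 0.0384, against 0.50 for CUFF.34437.4 with an adjusted p of 0.690, in the authors' deposited table. Beside these, GENE_0031779 and GENE_0103237 had edgeR differences of 1.89 and 1.76 in the direction of the switch, from isoforms that edgeR did not call in the authors' deposited table. The differences at GENE_0030744, GENE_0031779 and GENE_0103237 each involved an isoform below the edgeR median of 2.23 log2 CPM over all isoforms. CUFF.34437.2 averaged 1.80 log2 CPM, CUFF.84152.1 1.73 and CUFF.6079.1 1.24, whereas the dominant isoforms of GENE_0005334 averaged 5.08 and 4.89.

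At 3 loci the edgeR difference was at least 1 log2 unit in the opposite direction. GENE_0009803 had an edgeR log2 fold change of -0.80 for the male-dominant CUFF.73508.1 and 1.12 for the female-dominant CUFF.73508.5 in the authors' deposited table. GENE_0005825 had -0.88 for the male-dominant CUFF.75291.3 and 1.03 for CUFF.75291.4, the isoform that the authors' deposited Cuffdiff table lists at 0 in males. GENE_0002942, the second most complete exchange by share, had -3.11 for the male-dominant CUFF.1475.4 and -1.34 for the female-dominant CUFF.1475.5 in the authors' deposited edgeR table. None of these 6 isoforms was called by either tool. In the authors' deposited edgeR table those of GENE_0009803 averaged 4.92 and 3.22 log2 CPM, and those of GENE_0005825 5.69 and 4.04. Those of GENE_0002942 averaged 0.97 and 1.64 log2 CPM. The third isoform that edgeR called, the female-dominant CUFF.16146.2 of GENE_0001337, was higher in males there, with a log2 fold change of 1.37 and an edgeR adjusted p of 0.0477 in the authors' deposited table, against -1.69 by Cuffdiff.

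Several of these edgeR values stand at the lowest levels of that table. CUFF.1475.4 had an average of 0.97 log2 CPM in the authors' deposited edgeR table, whose lowest value over 47585 isoforms is 0.96 and whose 25th percentile is 1.35. Of the 48 switch locus isoforms listed there, 11 (22.9%) were at or under that percentile, against 12.7% of the listed isoforms of the other eligible loci. The median over the listed isoforms was 3.68 log2 CPM at the switch loci, however, and 3.18 log2 CPM at the other eligible loci. Not listed at all were 7.69% of the switch locus isoforms and 13.4% of those of the other eligible loci. Isoforms with the same reads in all libraries would get the same pair of fold change and average level. For 9 of the 48 that pair, to 3 decimals, recurred in at least 100 isoforms of the edgeR table. Over that whole table the most frequent pair recurred in 1553 isoforms. The share of all listed isoforms with such a pair was not counted, so the 9 are not read as many or few. These 9 include 8 dominant isoforms, at 7 loci, among them CUFF.1475.4, CUFF.4630.1 of GENE_0004886, CUFF.5994.2 of GENE_0015275, CUFF.2545.1 of GENE_0019158 and CUFF.3033.2 of GENE_0103105. In the authors' deposited tables CUFF.2545.1 thus has 9.28 FPKM in males and 17.0 FPKM in females by Cuffdiff and 1.11 log2 CPM by edgeR, in a locus of 3.79 log2 CPM. CUFF.3033.2 has 2.91 FPKM in males and 8.93 FPKM in females by Cuffdiff and 1.10 log2 CPM by edgeR, in a locus of 5.69 log2 CPM. The part of low reads in the differences between the tables was not tested.

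At the 10 loci where both dominant isoforms had at least 2 log2 CPM, the male-dominant isoform had the higher edgeR fold change at 4. Both loci described next belong to these 10. GENE_0104148 had edgeR log2 fold changes of -1.28 for its male-dominant isoform at 6.02 log2 CPM and -0.75 for its female-dominant isoform at 6.15 log2 CPM in the authors' deposited table. For GENE_0041665 the edgeR log2 fold changes were -1.004 and -0.89, at 5.87 and 5.04 log2 CPM in the authors' deposited table. At both loci the 2 isoforms had negative edgeR log2 fold changes, and edgeR called none of the 4.

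The totals of the switch loci were compared next. The isoform sums equalled the locus FPKM in the authors' deposited tables at all 23 loci within 0.1%. The sum was lower in males than in females at 17 of the 23 loci (73.9%), against 60.2% of the other eligible loci, a difference that was not tested. By Cuffdiff, 8 of the 23 totals had an adjusted p below 0.05 in the authors' deposited table, 2 higher and 6 lower in males. That is 34.8%, against 17.5% of all tested loci (7.06% higher and 10.4% lower in males) and 25.6% of the other eligible loci. EdgeR called 6 of the 23 in the authors' deposited table, 2 higher and 4 lower in males, which is 26.1% against 18.0% of all loci (8.40% higher and 9.58% lower in males) and 26.2% of the other eligible loci. The totals come from the same comparison as the rule, so these counts are a description.

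Both tools called 4 of the loci, in the same direction. GENE_0005334 was higher in males, at 30.2 FPKM in males and 7.80 FPKM in females, with a log2 fold change of 1.95 by Cuffdiff (adjusted p = 0.000859) and 1.204 by edgeR (adjusted p = 0.000267) in the authors' deposited tables. GENE_0104148 was lower in males, at 8.01 FPKM in males and 17.3 FPKM in females, with -1.11 by Cuffdiff (adjusted p = 0.00473) and -1.0002 by edgeR (adjusted p = 0.00409) there. GENE_0004190 was lower in males, with -1.13 by Cuffdiff (adjusted p = 0.00874) and -1.03 by edgeR (adjusted p = 0.00839) in the authors' deposited tables. GENE_0041665 was lower in males, with -1.01 by Cuffdiff (adjusted p = 0.0116) and -0.99 by edgeR (adjusted p = 0.00622) there. These 4 loci were thus called for their totals by both tools, from the same 4 libraries, as well as chosen for their isoforms. The share of all loci, or of the other eligible loci, called by both tools was not counted. The 4 are therefore not read as many or few.

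The tools differed on the totals of other loci. Cuffdiff alone called GENE_0030744 at 7.62 FPKM in males and 27.3 FPKM in females, a log2 fold change of -1.84 (adjusted p = 0.0134), against 0.013 by edgeR in the authors' deposited tables. It also called GENE_0002942 and GENE_0034915 lower in males, with adjusted p values of 0.0447 and 0.0381, and GENE_0039639 higher in males, with 0.0452, in the authors' deposited table. EdgeR alone called GENE_0001337 higher in males, with a log2 fold change of 1.17 (adjusted p = 0.0129), and GENE_0007445 lower in males, with -1.23 (adjusted p = 0.00580), in the authors' deposited table. At 13 loci neither tool called the total. Among these, GENE_0019158 had 24.1 FPKM in males and 20.5 FPKM in females, and GENE_0054492 had 22.7 FPKM in males and 18.2 FPKM in females, while the leading isoform by FPKM was another one in each sex. The locus set shared by 3 methods, 1343 loci in the authors' deposited table, held 0 of the 23. That set stands beside 37449 loci listed by edgeR, so 0 of 23 is not read as a trait of the switch loci.

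**Figure D4:**
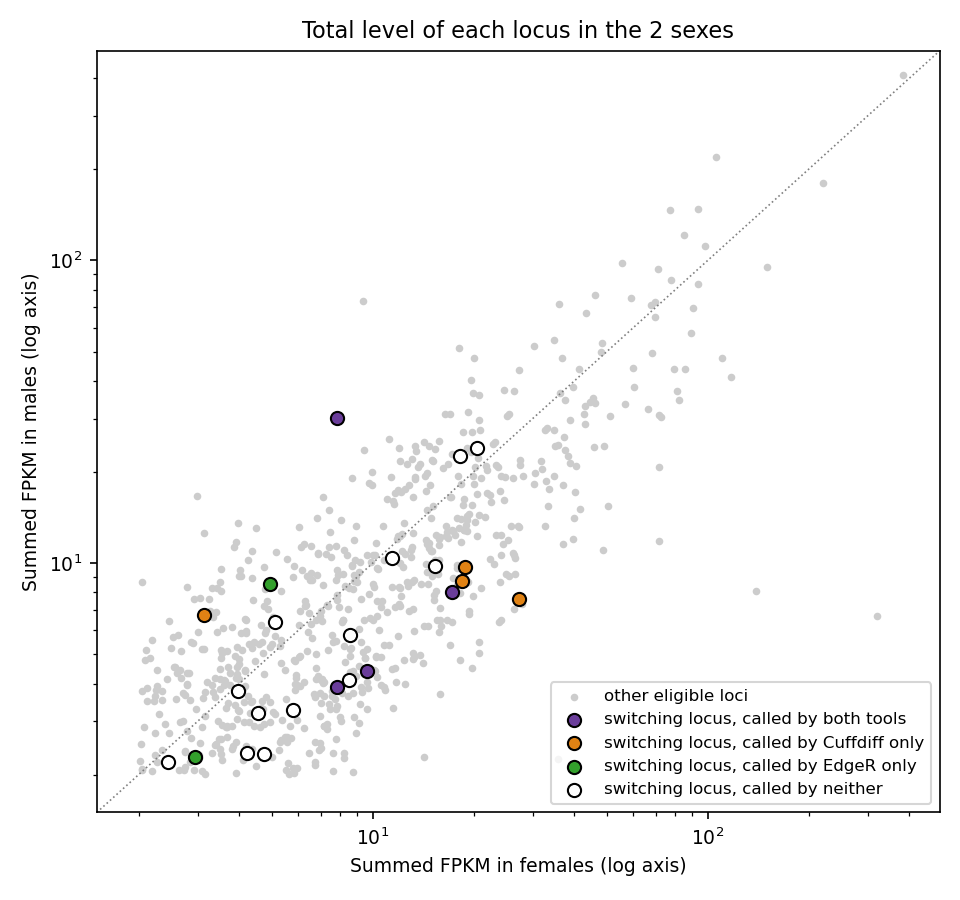
Summed FPKM of each eligible locus in males (y axis) and females (x axis), both on log axes, as 1 pooled value per sex; large points are the 23 switch loci, coloured by which tool called the locus at an adjusted p under 0.05, and grey points the other 727 eligible loci, with a dotted line at equal levels. Of the switch loci, 17 lie below the line and 6 above it, and 13 were called by neither tool.

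The isoform and locus levels of edgeR did not add up at every locus. At 19 switch loci with all isoforms in the authors' deposited edgeR tables, the isoform levels summed to a median of 105% of the locus level in CPM. The sum was under 90% at 4 of the 19, and at 188 of 534 other eligible loci. The highest sums were 140% at GENE_0004886 and 137% at GENE_0002942. The 4 sums under 90% were 5.33% at GENE_0104630, 51.0% at GENE_0005334, 55.5% at GENE_0103237 and 76.1% at GENE_0003358. At these 4 loci the edgeR level of the locus exceeded that of the listed isoforms together, and what accounts for the gap was not tested.

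Of the 23 loci, 4 overlapped another locus of the authors' deposited Cuffdiff table by at least 1 base (17.4%, against 218 of the 727 other eligible loci). At each of the 4 the coordinates were identical, which was not counted for the 218. For 2 of them the other locus held an isoform with the same assembly number, the part of the isoform name that marks transcripts assembled together. GENE_0005825 shared its position with GENE_0102362, whose isoform CUFF.75291.2 had 10.4 FPKM in males and 15.98 FPKM in females in the authors' deposited table, more than all isoforms of GENE_0005825 together. GENE_0007445 shared its position with GENE_0003456, whose CUFF.11033.9 had 1.57 FPKM in males and 6.94 FPKM in females there. Counted with these isoforms, both loci had the same top isoform in both sexes, CUFF.75291.2 with 64.2% of the sum in males and 65.1% in females, and CUFF.11033.9 with 40.7% in males and 70.2% in females. GENE_0003358 and GENE_0005334 shared their positions with loci of another assembly number, and the one at GENE_0005334 was listed at 0 in both sexes. How reads were divided between loci of the same position is not given in the tables.

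The 60% minimum cut through a continuous range. Just inside it were GENE_0103237, whose smaller dominant share was 60.9%, GENE_0019158 with 61.4% and GENE_0004190 with 62.1%. Just outside were GENE_0000327 on Scaffold161 with 59.7%, GENE_0005596 on Scaffold7 with 58.6% and GENE_0004982 on Scaffold254 with 58.2%.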

How the data were processed

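RNA of 2 male and 2 female libraries was sequenced with a strand-specific library protocol, per the labels' protocols. Per the submitters' processing notes, the submitters used TopHat, Cufflinks, Cuffdiff and edgeR; versions and the build of the genome are not given in the sources consulted. The deposited Cuffdiff tables hold 1 FPKM value per sex with the authors' log2 fold change, test score, p-value and adjusted p-value, per the file headers. The edgeR tables of the authors, as the authors deposited them, hold the log2 fold change, average log2 CPM, p-value and adjusted p-value, per the file headers. The tables named for the Trinity mode hold all 5867 isoforms and 6733 loci of those named for the gene map mode with the same values, and were read as the full gene map comparison.

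Isoforms were joined to loci by the test ID, which matched all 61672 loci, whereas the gene ID column of the locus table matched 15466. Starts, which count from 0 in the files, were raised by 1. Overlap means at least 1 shared base. No test was run: every p-value is the authors', and calls use an adjusted p under 0.05. Shares, sums and counts were computed with Python 3.11.15, numpy 2.4.6 and pandas 2.3.3, and the selection was tested on simulated data. Loci were named for the highest dominant shares or sums, for isoform calls in both directions, or for standing next to the 60% minimum; others were named after their values were seen. Members and lists were chosen with earlier results of these data known. No value per library was used, so no replicate was left out in turn and no interval for depth is given. Alternatives changed the share and FPKM minimums, the number and status of isoforms, the contigs, a pseudocount, the adjusted p and the tool.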

Additional observations from a re-analysis of the deposited data

How the results depend on the processing

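The number of switch loci, 23 as reported, depended on the minimums: it was 90, 11, 4 and 2 at a dominant share of at least 50, 70, 80 and 90%, and 42, 11 and 3 at a summed FPKM of at least 1, 5 and 10. The median share of the male-dominant isoform in males, 76.0% as reported, was 59.5%, 86.4%, 89.1% and 96.3% at those share minimums, which bound the share themselves. It was 81.0%, 82.2% and 65.8% at those FPKM minimums, and the cause was not tested. With isoforms of any status the rule found 36 loci. With 1 FPKM added to each isoform it found 14, all of them among the 23, and with 0.1 FPKM added 22. With isoforms grouped by assembly number, chosen after seeing the data, it found 46 and kept 21 of the 23. Without the loci that Cuffdiff called in total, also chosen after seeing the data, 15 were left. The count of loci with both dominant isoforms called in opposite directions was 0 under every share and FPKM minimum tried, at an adjusted p of 0.01 and 0.1, and with the edgeR calls. EdgeR listed both dominant isoforms at 19 of the 23 loci. The male-dominant isoform had the higher edgeR fold change at 9 of 19 loci, by at least 1 log2 unit at 4, and at 4 of the 10 loci with at least 2 log2 CPM for both isoforms. At an adjusted p under 0.01 Cuffdiff called 3 loci in total in place of 8. The locus fold change had the opposite sign by edgeR at GENE_0030744, 0.013 against -1.84, and at GENE_0103105, 0.074 against -0.13; the cause was not tested. No paired analysis was possible because the tables hold no value per library, and for the same reason no library could be left out.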
